A study of Homo sapiens with 24 samples.

Results

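The 37 genes described here code for sensors, transcription factors and targets of the unfolded protein response and the integrated stress response, and were taken by symbol from a named list led by ERN1, ATF3 and HSPA5. All 37 were among the 60448 gene symbols of the tables, 19226 of which were protein-coding. All 37 also passed the filter on low counts in each of the 9 comparisons. They fall into 6 roles: 5 sensors and transducers, 6 transcription factors and feedback genes of the ATF4 and CHOP branch, 7 genes of amino acid synthesis and transport, 11 chaperones, lectins and disulfide isomerases of the endoplasmic reticulum (ER), 3 ER J proteins and 5 genes of ER-associated degradation and translocation.

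The cells were BPH-1 and RWPE-1, human prostate epithelial cell lines immortalized with SV40 and with a human papillomavirus, and both carried luciferase reporters. Vector control cells (3 libraries of BPH-1, 1 of RWPE-1) were compared with C-Raf parental cells, which overexpress wild-type C-Raf (3 and 4 libraries), and with C-Raf metastasis-derived lines (6 and 7 libraries). These lines were grown for about a week from tumors of bone, lymph node, spine or thymus, resected from immunodeficient NSG mice after intracardiac injection of C-Raf parental cells, so every metastasis-derived library also carries the C-Raf construct. BPH-1 cells were grown with fetal bovine serum, in DMEM by the labels and in RPMI by the methods, and RWPE-1 cells in keratinocyte serum-free medium. Cell line, medium and count table cannot be told apart, nor can stage and count table among the BPH-1 metastasis-derived lines. Nothing in the labels says that the vector control or C-Raf parental libraries came from separate cultures, so p-values measure the spread between these libraries, which may be technical. The RWPE-1 lymph node lines are titled LN1A and LN1B, and the labels do not say whether they came from separate tumors.

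Of the 24 libraries, 21 held 20568409 to 42007359 protein-coding counts and entered the tests. The BPH-1 lines titled bone R071, bone R074 and bone R075 held 111169 to 464711 and are given apart as low-depth libraries. RN7SL1, the RNA of the signal recognition particle, took 93.3 to 97.5% of their counts, 4.6 to 30.3% in the other 3 BPH-1 metastasis-derived lines (bone R069, bone R072 and the line titled thymus R075) and at most 0.00932% in any other library. Line R072 stood apart among the deep libraries, with 38.9% of its counts in protein-coding genes and a TMM factor of 0.616. The summed level of 8 epithelial markers was 2696 to 12388 CPM in the deep libraries (CPM, a gene's counts scaled to the same library total throughout) and 2094 to 3885 CPM in the low-depth lines, where EPCAM was at 0 in R074 and bone R075. Of 8 haematopoietic markers, 7 were below 1 CPM in every deep library. In the low-depth lines the sums were 32.1 to 305 CPM for these 8 (5 at 0, with HBB at 183 and HBA1 at 122 CPM in bone R075), 56.2 to 276 CPM for 7 fibroblast markers (3 at 0) and 0 to 80.3 CPM for 5 endothelial markers (3 at 0, with VWF at 80.3 CPM in R074), and their part in the low-depth values was not tested. The line titled thymus R075 carries the treatment label of a bone metastasis, and the low-depth line titled bone R075 that of a thymus metastasis, so neither was given a site.

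Secreted and membrane proteins fold in the ER, and an excess of unfolded protein there is sensed by the transmembrane proteins IRE1 (gene ERN1), PERK (EIF2AK3) and ATF6. IRE1 splices XBP1 mRNA and, with ATF6, raises chaperone and degradation genes, whereas PERK phosphorylates the translation factor eIF2α, which slows protein synthesis and favours translation of ATF4. Other kinases phosphorylate the same factor on amino acid shortage, viral infection or heme deficiency, and this shared output, the integrated stress response, raises genes for amino acid synthesis and uptake, CHOP (DDIT3), ATF3 and the phosphatase subunit GADD34 (PPP1R15A).

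The targets of these branches carry different promoter motifs, and 6 promoters of genes described below are shown. In the BPH-1 metastasis-derived lines SDF2L1, HYOU1, ASNS and CHAC1 all fell and PPP1R15A rose. Whether direction goes with the motif was not tested. Promoter sequence (RefSeq, GRCh38.p14) was at hand for 34 of the 37 genes, with SHMT2, PSPH and PDIA3 the other members. The 250 bases before the annotated start were searched on both strands for the ER stress element ERSE (CCAAT and CCACG with 9 bases of any kind between them), ERSE-II (ATTGG and CCACG with 1 base between them), the CARE element bound by ATF4 and C/EBP proteins (TGATGNAA) and the cyclic AMP response element CRE (TGACGTCA). ERSE was present in CALR, CANX, CRELD2, HSP90B1, HSPA5, PDIA6 and XBP1, against 0.074% of the 35116 promoter windows of all genes. ERSE-II was present in HERPUD1, HYOU1 and SDF2L1, against 0.0513% of windows. CARE was present in ASNS, ATF3, CHAC1 and HERPUD1, against 3.14%, and CRE in PPP1R15A, against 1.65%. Members were counted by gene, with a match in any of its windows (CANX had 4), and the background by window. The shares are thus not like for like, and no excess was tested. The sequences are written 5′ to 3′ on the strand of the gene, with the match in capitals, and a match on the other strand appears as its reverse complement. They lie at chr9:125241344-125241593 (HSPA5, minus strand), chr22:21642052-21642301 (SDF2L1, plus), chr11:119057206-119057455 (HYOU1, minus), chr7:97872409-97872658 (ASNS, minus), chr15:40953221-40953470 (CHAC1, plus) and chr19:48872171-48872420 (PPP1R15A, plus).
HSPA5: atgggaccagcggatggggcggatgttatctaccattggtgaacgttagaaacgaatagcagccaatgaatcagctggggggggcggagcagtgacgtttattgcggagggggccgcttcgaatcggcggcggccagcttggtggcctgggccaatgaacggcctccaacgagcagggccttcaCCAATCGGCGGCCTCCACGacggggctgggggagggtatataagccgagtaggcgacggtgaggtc
SDF2L1: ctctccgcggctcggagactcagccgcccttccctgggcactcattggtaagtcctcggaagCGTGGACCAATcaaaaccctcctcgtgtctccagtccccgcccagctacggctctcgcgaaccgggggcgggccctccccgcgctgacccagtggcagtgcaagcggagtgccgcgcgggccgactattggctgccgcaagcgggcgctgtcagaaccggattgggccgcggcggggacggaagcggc
HYOU1: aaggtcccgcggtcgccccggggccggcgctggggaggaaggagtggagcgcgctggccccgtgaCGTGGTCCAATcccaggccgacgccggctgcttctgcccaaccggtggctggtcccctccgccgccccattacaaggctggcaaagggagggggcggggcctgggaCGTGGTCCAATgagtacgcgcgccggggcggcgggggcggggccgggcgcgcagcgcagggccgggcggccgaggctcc
ASNS: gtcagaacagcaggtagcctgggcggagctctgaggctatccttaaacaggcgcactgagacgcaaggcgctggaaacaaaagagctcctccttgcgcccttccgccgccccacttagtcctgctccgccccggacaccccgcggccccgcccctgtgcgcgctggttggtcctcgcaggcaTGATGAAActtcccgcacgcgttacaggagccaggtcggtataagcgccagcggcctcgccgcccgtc
CHAC1: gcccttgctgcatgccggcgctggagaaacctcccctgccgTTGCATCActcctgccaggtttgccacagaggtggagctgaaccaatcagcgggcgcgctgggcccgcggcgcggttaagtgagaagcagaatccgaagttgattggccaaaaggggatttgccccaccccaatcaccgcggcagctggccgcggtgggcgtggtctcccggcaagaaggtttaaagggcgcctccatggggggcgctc
PPP1R15A: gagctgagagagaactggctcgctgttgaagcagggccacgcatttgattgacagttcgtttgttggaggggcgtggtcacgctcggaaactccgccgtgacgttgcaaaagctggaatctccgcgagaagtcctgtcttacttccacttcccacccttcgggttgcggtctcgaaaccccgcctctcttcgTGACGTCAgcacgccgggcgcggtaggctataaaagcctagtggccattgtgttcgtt
HSPA5 has 1 ERSE, SDF2L1 1 ERSE-II and HYOU1 2 copies of ERSE-II. ASNS and CHAC1 each have 1 CARE element, and PPP1R15A has 1 CRE. A match is a description of the letters and not a measured binding site.

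Per kilobase of gene model, the members spanned a wide range of levels. In BPH-1 C-Raf parental cells HSP90B1 (the chaperone GRP94) stood at 352 CPM per kilobase, SLC7A5 at 350, CALR at 331 and HSPA5 at 236. ERN1 was the lowest of the 37 in this group and in RWPE-1 C-Raf parental cells, at 1.77 and 1.03 CPM per kilobase. Levels below are TMM-scaled CPM over protein-coding genes. Differences are log2 fold changes ± SE, tested by the quasi-likelihood method of edgeR and adjusted over all genes tested after Benjamini and Hochberg.

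In BPH-1, C-Raf parental cells differed from vector control in 28 of the 37 genes, 22 higher and 6 lower, against 59.8% of all 13235 genes tested (30.4% higher and 29.4% lower). The libraries of these groups varied little (biological coefficient of variation 2.43%), and 27 of the 28 changes were under 0.5 on the log2 scale. All C-Raf parental libraries lay above all vector control libraries for 24 members and below them for 5, against 34.5% and 29.1% of all genes. BPH-1 metastasis-derived lines differed from C-Raf parental cells in 17 of the 37, 4 higher and 13 lower, against 37.7% of 13458 genes (21% higher and 16.8% lower). The count was 8 when any of the C-Raf parental libraries was left out (14.1 to 15.1% of all genes), 24 without line R072 (60.6%) and 9 with all 6 lines (15.6%). The median log2 fold change of the members was −0.32, against 0.07 over all genes tested. The deep lines all lay above the C-Raf parental libraries for 5 members and below them for 18, against 27.8% and 31.9% of all genes. Both comparisons share the C-Raf parental libraries.

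In RWPE-1, 0 of the 37 genes passed the test between metastasis-derived lines and parental cells, against 0.0985% of 13192 genes. At an unadjusted p below 0.05 edgeR gave 1 member, against 7.86% of all genes, and DESeq2 called 0, against 1.24% of all genes. The 4 RWPE-1 C-Raf parental libraries against the single vector control library gave 0 calls among the members, against 0.396% of 13888 genes, with 4 at an unadjusted p below 0.05 (18% of all genes). In this comparison DESeq2 called 0, against 5.56% of all genes. The vector control library is here assumed to vary like the other groups.

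With both cell lines in one model and cell line as a term, C-Raf parental cells against vector control gave 0 of 37 by edgeR, against 0.813% of 15243 genes, and 1 at an unadjusted p below 0.05 (9.39% of all genes). DESeq2 called 1 member, ERN1, against 2.98% of all genes. Metastasis-derived lines against parental cells gave 0 of 37 by edgeR, against 2.51%, and 11 at an unadjusted p below 0.05, against 27.3% of all genes. DESeq2 called 3 (HYOU1, PDIA4 and PPP1R15A), against 6.13% of all genes. The metastasis effect itself differed between the cell lines for 18 members, with 15 higher in RWPE-1 relative to BPH-1 and 3 lower, against 46.5% of 15243 genes (22.1% and 24.4%). For the C-Raf effect 0 members differed between the cell lines, against 0.453%, with 1 at an unadjusted p below 0.05 (12.4% of all genes) and 0 by DESeq2 (3.31% of all genes). In 1 of 25 alternative fits, without line thymus R075, ATF3 passed.

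**Figure D1:**
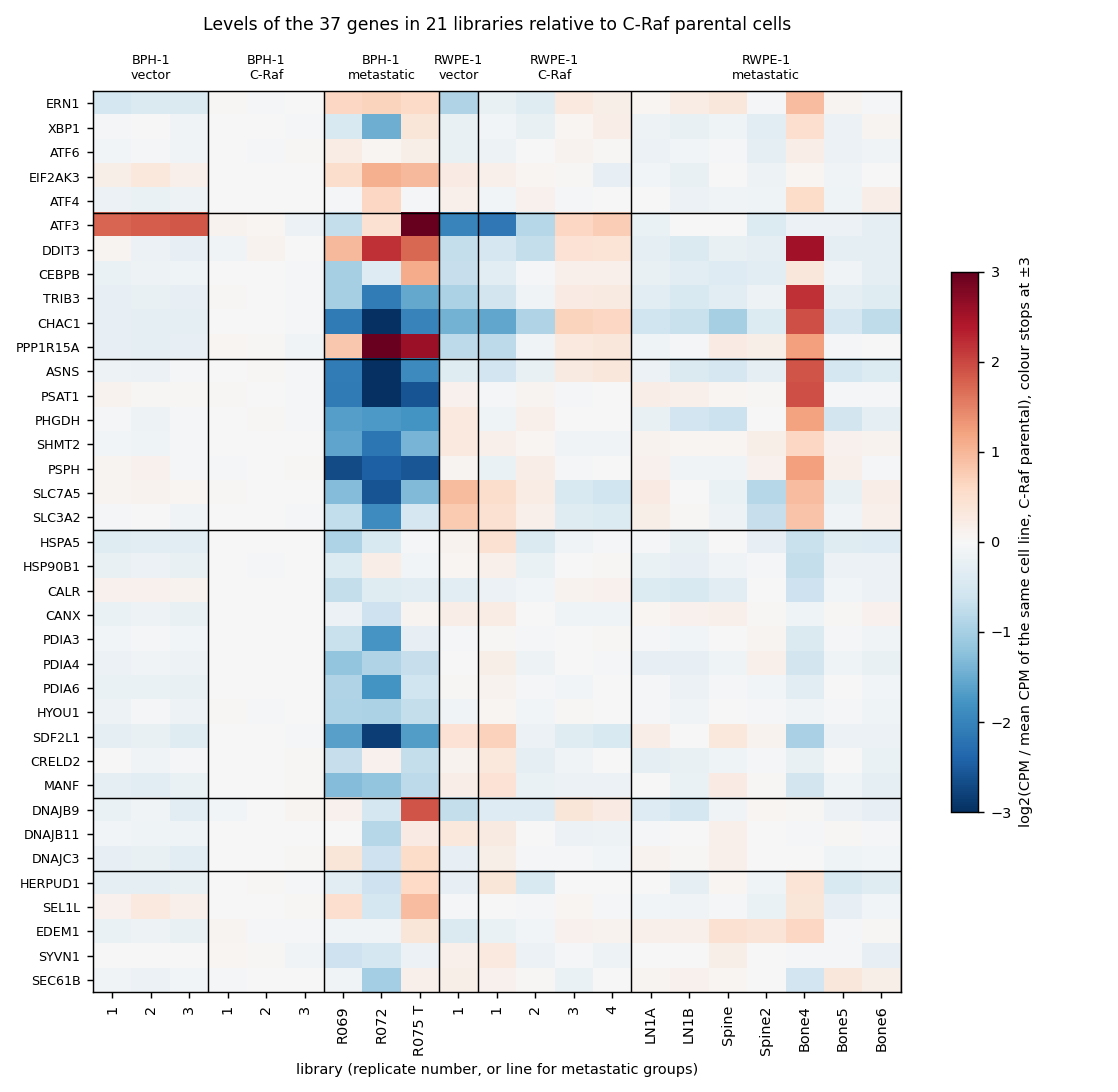
Level of each of the 37 genes (rows, grouped by role) in each of the 21 deep libraries (columns, grouped by cell line and stage), as log2 CPM minus the mean of the C-Raf parental libraries of the same cell line, with colours limited to ±3. The amino acid genes are low in all 3 BPH-1 metastasis-derived lines and high in the RWPE-1 line Bone4.

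Among the sensors, ERN1 and EIF2AK3 rose in the BPH-1 metastasis-derived lines. ERN1 (chromosome 17, 64039142 to 64130819, minus strand, GRCh38), which encodes the kinase and endoribonuclease IRE1α, stood at 13.4, 14.1 and 14.2 CPM in BPH-1 vector control. It stood at 19.6, 18.6 and 19.4 CPM in C-Raf parental cells and at 29.6, 30.5 and 28.4 CPM in lines R069, R072 and thymus R075. The 3 groups did not overlap, and each stage lay above the one before. Of all genes, 34.5% rose without overlap at the C-Raf step and 27.8% at the metastasis step. ERN1 was higher by 0.45 ± 0.06 in C-Raf parental cells than in vector control (edgeR adjusted p = 7.82e-08) and by a further 0.67 ± 0.15 in the metastasis-derived lines (edgeR adjusted p = 0.015). The second step missed the threshold when any of the C-Raf parental libraries was left out (edgeR adjusted p from 0.0962 to 0.11) and with all 6 lines (0.45, edgeR adjusted p = 0.529). The low-depth lines gave 9, 2 and 1 counts of ERN1, and the 95% Wilson interval of each (10.2 to 36.8, 4.14 to 55.1 and 1.59 to 51.0 CPM without TMM scaling) included the parental mean of 21.9 CPM on that scale. The metastasis step also depended on scaling: as CPM of all counts, RN7SL1 included, mean ERN1 was 21.4 in C-Raf parental cells and 18.0 in the metastasis-derived lines, a scale on which the median of all genes shifted by −0.84 (log2), against 0.02 under TMM. On the scale of all counts, line R072 (386 of 52851374 counts) lay below every parental library, and lines R069 and thymus R075 lay above every one.

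In RWPE-1, ERN1 was at 5.97 CPM in the vector control library and at 9.57, 8.74, 13.7 and 12.6 CPM in the C-Raf parental libraries. The 7 metastasis-derived lines ran from 10.6 to 21.1 CPM with a median of 11.8, and the highest was line Bone4. All C-Raf parental libraries lay above the vector control library, whereas C-Raf parental and metastasis-derived libraries overlapped. Neither step passed edgeR's test (0.91 ± 0.37, adjusted p = 0.238, and 0.26 ± 0.20, adjusted p = 0.797). Over both cell lines the C-Raf step was 0.63 ± 0.18 (edgeR adjusted p = 0.137, or 0.0436 without line Bone4 and 0.0218 by DESeq2), and the metastasis step was 0.39 ± 0.14 (edgeR adjusted p = 0.11, or 0.017 by DESeq2 after ComBat-seq). The metastasis step did not differ detectably between cell lines (−0.34 ± 0.27, edgeR adjusted p = 0.309), except without line Bone4 (−0.49, edgeR adjusted p = 0.0459).

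EIF2AK3, the eIF2α kinase PERK, was at 19.8, 21.8 and 19.3 CPM in BPH-1 vector control and at 17.3, 17.6 and 17.3 CPM in C-Raf parental cells. It reached 25.1, 36.5 and 34.3 CPM in lines R069, R072 and thymus R075, above every other deep library. It fell by 0.24 in C-Raf parental cells (SE 0.06, edgeR adjusted p = 0.000536) and rose by 0.93 ± 0.20 in the metastasis-derived lines (edgeR adjusted p = 0.0131). In RWPE-1 the range was 15.2 to 20.1 CPM in C-Raf parental libraries and 15.6 to 19.0 CPM in metastasis-derived lines, which overlapped. The difference between the cell lines was −0.92 ± 0.16 (edgeR adjusted p = 0.000185). As for ERN1, the BPH-1 step missed the threshold when any of the C-Raf parental libraries was left out (edgeR adjusted p from 0.075 to 0.0779) and with all 6 lines (0.35, edgeR adjusted p = 0.734). It was lost as CPM of all counts, where the means were 19.4 and 19.0, with R072 below the parental libraries, R069 among them and thymus R075 above.

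The other 3 sensors and transducers did not pass the test in the BPH-1 metastasis-derived lines. XBP1, whose spliced form encodes the transcription factor downstream of IRE1, was at 55.8 to 57.7 CPM in C-Raf parental cells and at 41.4, 20.4 and 73.3 CPM in lines R069, R072 and thymus R075, on both sides of the parental level. These gene-level counts do not separate the spliced from the unspliced form. ATF6, the membrane-bound transcription factor, was at 58.4 to 62.3 CPM in C-Raf parental cells and at 71.1, 62.9 and 68.1 CPM in the lines (0.20 ± 0.14, edgeR adjusted p = 0.291). ATF4, the transcription factor of the integrated stress response, was at 248 to 255 CPM and at 246, 387 and 245 CPM, with line R072 alone above the parental libraries.

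**Figure D2:**
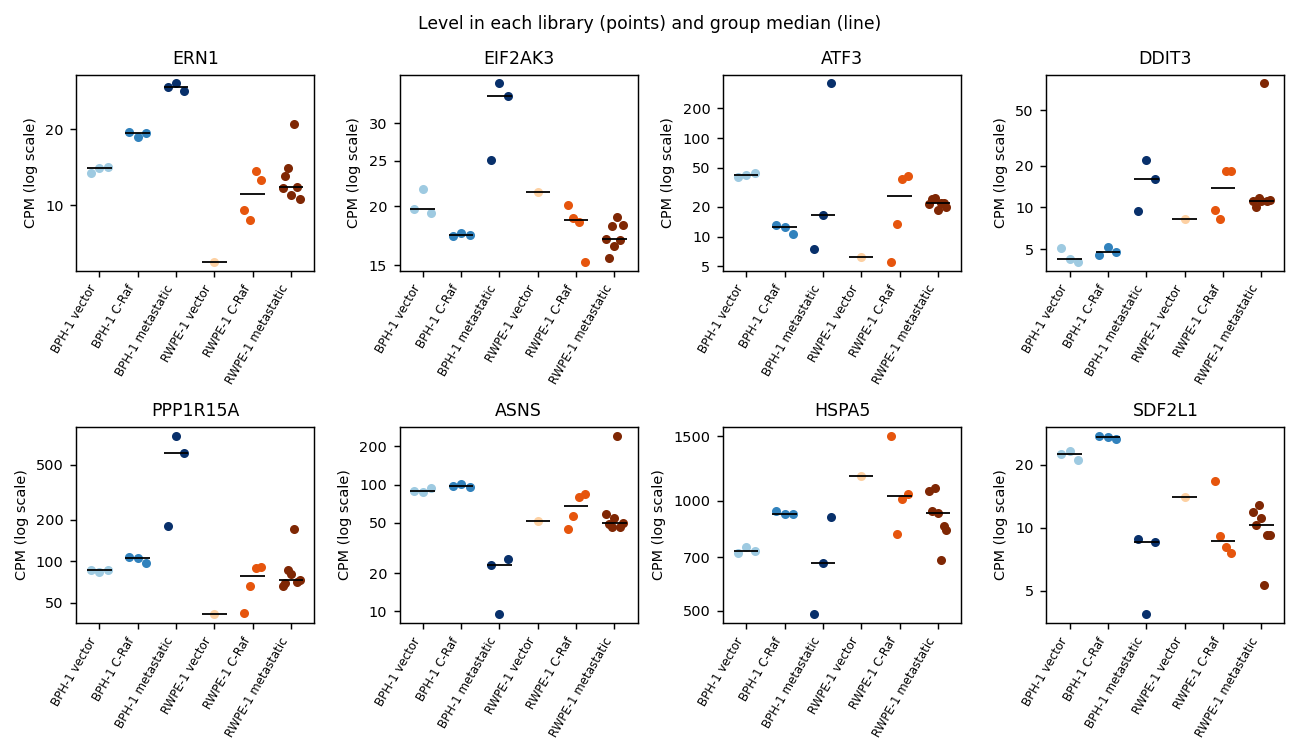
Levels of 8 genes in CPM (log axis) by cell line and stage, with 1 point per deep library and a line at the group median. ERN1 rises from group to group in BPH-1, ATF3 in BPH-1 metastasis-derived lines spans 7.44 to 358 CPM, and ASNS is below every parental library in all 3 of these lines.

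Within the ATF4 and CHOP branch, DDIT3 and PPP1R15A rose in the BPH-1 metastasis-derived lines, TRIB3 and CHAC1 fell, and ATF3 and CEBPB did not pass the test. ATF3 (chromosome 1, 212565334 to 212620777, plus strand, GRCh38), a stress-inducible transcription factor, gave the largest C-Raf effect of any member in BPH-1. It stood at 40.5, 42.5 and 43.9 CPM in vector control and at 13.1, 12.6 and 10.7 CPM in C-Raf parental cells, with no overlap (29.1% of all genes fell without overlap at this step). The difference was −1.81 ± 0.06 (edgeR adjusted p = 4.23e-21). The metastasis-derived lines R069, R072 and thymus R075 were at 7.44, 16.6 and 358 CPM, so 1 line lay below the parental range, 1 slightly above and 1 far above. The fitted difference of 3.42 ± 1.42 did not pass edgeR's test (adjusted p = 0.101) and was 0.02 without line thymus R075.

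In RWPE-1, ATF3 was at 6.17 CPM in the vector control library and at 5.56, 13.5, 38.0 and 41.2 CPM in the C-Raf parental libraries. The first C-Raf parental library, which shares a count table with the vector control library, lay below it, and the other 3, from the second table, lay above. The difference of 2.0 ± 0.84 did not pass edgeR's test (adjusted p = 0.243) and did so only without that first library among the alternatives run (2.33, edgeR adjusted p = 0.0206). The C-Raf effect on ATF3 was not shown to differ between the cell lines (3.82 ± 1.73, edgeR adjusted p = 0.376). This difference ran from 3.45 to 4.15 over 25 alternative fits and passed the threshold in 1 of them, without line thymus R075. The metastasis-derived lines were at 18.4 to 24.5 CPM with a median of 21.8, within the parental range. The difference of the metastasis effect between the cell lines was −3.56 ± 1.13 (edgeR adjusted p = 0.0149), and −0.10 without line thymus R075 (edgeR adjusted p = 0.919).

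DDIT3 encodes CHOP, the transcription factor linked to cell death under lasting ER stress. It was at 5.09, 4.24 and 4.05 CPM in BPH-1 vector control, at 4.51, 5.19 and 4.75 CPM in C-Raf parental cells and at 9.46, 22 and 16.0 CPM in lines R069, R072 and thymus R075. Vector control and parental libraries overlapped, and all 3 lines lay above both. The rise was 1.76 ± 0.34 (edgeR adjusted p = 0.00991), and as CPM of all counts the mean of the lines was still higher by 1.62-fold. On that scale line R072 lay within the parental range, with 279 of 52851374 counts, and R069 and thymus R075 lay above it. The rise missed the threshold when any of the C-Raf parental libraries was left out (edgeR adjusted p from 0.0503 to 0.0572). DDIT3 overlaps MARS and MBD6 on the opposite strand, and whether the counting used strand is not given in the sources used here. MARS stood at 155 to 164 CPM in C-Raf parental cells and at 50.7, 37.3 and 53.5 CPM in the same lines. Levels of MBD6 are not given here, and the part of either overlap was not tested. In RWPE-1, DDIT3 was at 8.26 CPM in vector control, at 9.60, 8.26, 18.4 and 18.1 CPM in C-Raf parental libraries, and at 10.0 to 11.7 CPM in 6 metastasis-derived lines, with line Bone4 at 78.2 CPM.

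PPP1R15A, the regulatory subunit that directs dephosphorylation of eIF2α, was at 86.2, 83.9 and 86.4 CPM in BPH-1 vector control and at 107, 106 and 96.3 CPM in C-Raf parental cells. It reached 180, 807 and 610 CPM in lines R069, R072 and thymus R075. The groups did not overlap at either step, and 34.5% and 27.8% of all genes rose without overlap at these steps. The C-Raf step was 0.25 ± 0.03 (edgeR adjusted p = 3.93e-07) and the metastasis step 2.42 ± 0.54 (edgeR adjusted p = 0.0153), and the mean of the lines was still 2.48-fold higher as CPM of all counts. The metastasis step missed the threshold when any of the C-Raf parental libraries was left out (edgeR adjusted p from 0.0665 to 0.0693) and with all 6 lines (2.10, edgeR adjusted p = 0.0726). The low-depth lines R071 and R074 gave 102 and 89 counts, or 219 CPM without TMM scaling (95% Wilson interval 181 to 266) and 672 CPM (546 to 827), against a mean of 117 CPM on that scale in C-Raf parental cells. The low-depth line titled bone R075 gave 6 counts, or 54.0 CPM (24.7 to 118), an interval that includes the parental mean. In RWPE-1, PPP1R15A was at 42.1 to 90.7 CPM in C-Raf parental libraries and at 66.0 to 86.0 CPM in all metastasis-derived lines but Bone4, at 170.2 CPM. The metastasis effect was lower in RWPE-1 than in BPH-1 by 2.06 on the log2 scale (−2.06 ± 0.51, edgeR adjusted p = 0.00327).

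TRIB3, a pseudokinase induced by ATF4 and CHOP, fell from 68.0, 67.6 and 65.0 CPM in BPH-1 C-Raf parental cells to 33.3, 15.7 and 23.2 CPM in lines R069, R072 and thymus R075 (−1.42 ± 0.28, edgeR adjusted p = 0.0104). CHAC1, a glutathione-degrading enzyme induced by the same factors, fell from 14.8, 14.8 and 14.1 CPM to 3.33, 0.158 and 3.62 CPM (−2.53 ± 0.79, edgeR adjusted p = 0.0458). Both genes were below every parental library in all 3 lines, as were 31.9% of all genes. The CHAC1 value of line R072 rests on 2 counts, or 0.0972 CPM without TMM scaling (95% exact interval 0.0118 to 0.351). Without line R069, CHAC1 did not pass edgeR's test (−2.82, adjusted p = 0.101), nor did it when any of the C-Raf parental libraries was left out or with all 6 lines (−1.46, edgeR adjusted p = 0.351), whereas TRIB3 passed in each of these fits. The low-depth line R071 gave 11 counts of CHAC1, or 23.7 CPM without TMM scaling (95% Wilson interval 13.2 to 42.4), an interval that includes the parental mean of 16.6 CPM on that scale. Lines R074 and bone R075 gave 0 counts, which allows up to 22.7 and 27.0 CPM (3 counts), both above the parental mean. CEBPB, which encodes the transcription factor C/EBPβ, was at 104 to 106 CPM in C-Raf parental cells and at 52.9, 81.1 and 228 CPM in the lines, with thymus R075 alone above.

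The genes of amino acid synthesis and transport were all lower in the BPH-1 metastasis-derived lines, and 6 of 7 passed the test, against 16.8% of all genes called lower. PSAT1, which makes phosphoserine, was at 189, 179 and 179 CPM in vector control, 181, 176 and 169 CPM in C-Raf parental cells and 40.0, 17.8 and 29.2 CPM in lines R069, R072 and thymus R075 (−2.55 ± 0.31, edgeR adjusted p = 0.00288). PSPH, the phosphatase of the last step of serine synthesis, went from 21.6, 22.7 and 23.0 CPM in C-Raf parental cells to 3.49, 4.10 and 3.76 CPM (−2.52 ± 0.18, edgeR adjusted p = 0.00117). ASNS, asparagine synthetase, went from 97.1, 100.4 and 96.3 CPM to 23.1, 9.55 and 26.1 CPM (−2.27 ± 0.37, edgeR adjusted p = 0.00612). For these 3 genes each metastasis-derived line lay far below every parental and vector control library.

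PHGDH, the first enzyme of serine synthesis, fell from 115 to 120 CPM in C-Raf parental cells to 37.9, 35.7 and 34.2 CPM (−1.67 ± 0.15, edgeR adjusted p = 0.00154). SHMT2, the mitochondrial enzyme that converts serine to glycine, fell from 170 to 171 CPM to 56.7, 37.9 and 65.4 CPM (−1.63 ± 0.23, edgeR adjusted p = 0.00409). SLC7A5, which encodes the LAT1 light chain for large neutral amino acids, fell from 1706, 1635 and 1636 CPM to 671, 275 and 666 CPM (−1.58 ± 0.37, edgeR adjusted p = 0.0181, or from 0.0669 to 0.0703 when any of the C-Raf parental libraries was left out). Its partner SLC3A2 was at 442 to 456 CPM in parental cells and at 268, 121 and 315 CPM in the lines, without overlap (31.9% of all genes fell without overlap). SLC3A2 did not pass the test (−0.89 ± 0.35, edgeR adjusted p = 0.089). PSAT1, PSPH, ASNS, PHGDH and SHMT2 passed in each of the 11 alternative fits of this comparison. Summed over these 5 enzymes, levels without TMM scaling were 656 to 675 CPM in C-Raf parental cells and 64.7 to 176 CPM in the 3 deep lines. The low-depth lines R071, R074 and bone R075 gave 22, 8 and 1 counts, or 47.3 CPM (95% Wilson interval 31.3 to 71.7), 60.4 CPM (30.6 to 119) and 9.0 CPM (1.59 to 51.0), all with upper limits under the parental sums.

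In the C-Raf step of BPH-1 the same 7 genes moved by little: ASNS and SHMT2 were higher and PSAT1 and SLC7A5 lower by 0.07 to 0.11 on the log2 scale, and the other 3 did not pass the test. In RWPE-1, 0 of the 7 passed in the metastasis comparison by edgeR (0 at an unadjusted p below 0.05 and 0 by DESeq2, against 7.86% and 1.24% of all genes), where the fitted difference was positive for 6 and negative for 1, against a median over all genes of 0.01. That tally depended on line Bone4. The mean of the other 6 lines was under the parental mean for ASNS (50.8 against 66.2 CPM) and PHGDH (78.3 against 101 CPM). The same held for SLC7A5 (1467 against 1564 CPM) and SLC3A2 (375 against 393 CPM), whereas PSAT1, SHMT2 and PSPH lay above. The metastasis effect differed between the cell lines for all 7, against 46.5% of all genes (22.1% higher in RWPE-1), with RWPE-1 higher by 1.05 ± 0.42 for SLC3A2 (edgeR adjusted p = 0.0457) up to 3.13 ± 0.55 for PSAT1 (edgeR adjusted p = 0.000178). The SLC3A2 difference missed the threshold in 15 of 26 alternative fits (edgeR adjusted p up to 0.107), and the other 6 passed in each.

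**Figure D3:**
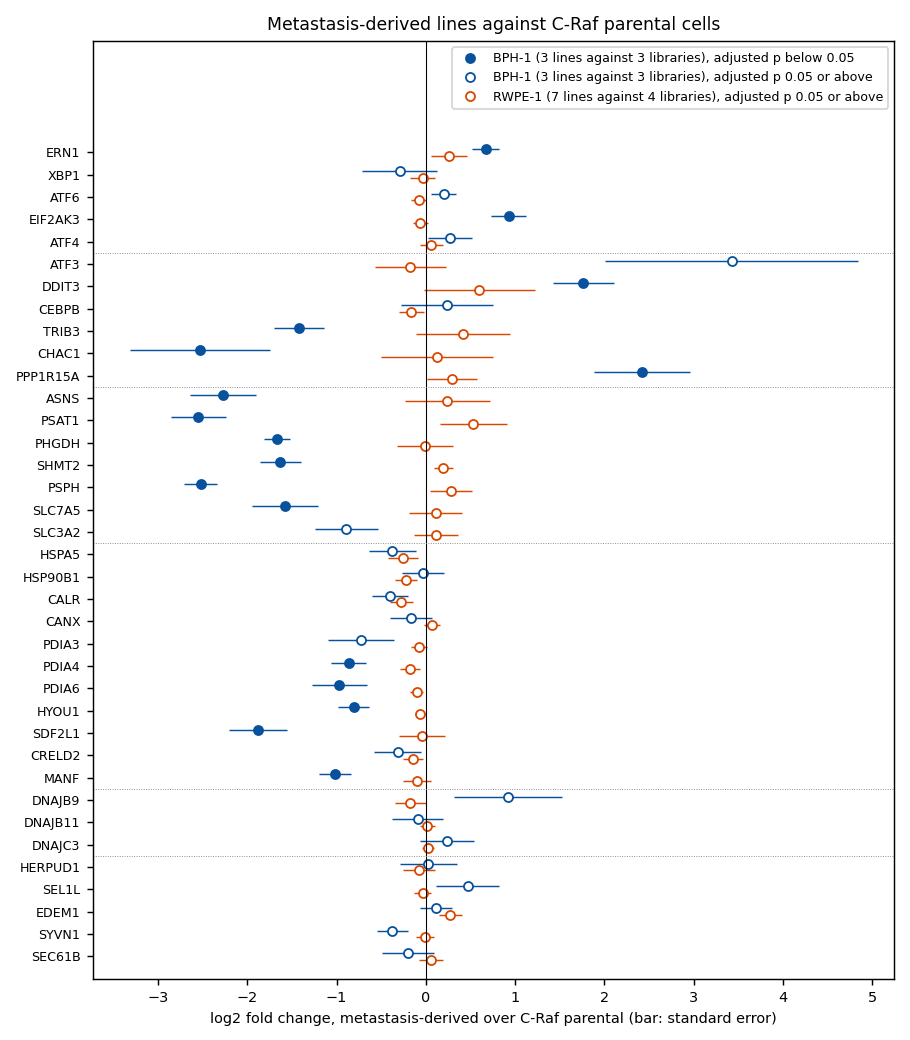
Log2 fold change of each member in metastasis-derived lines over C-Raf parental cells, with its standard error, in BPH-1 (blue, 3 lines against 3 libraries) and RWPE-1 (orange, 7 lines against 4 libraries). Filled points passed edgeR's test at an adjusted p below 0.05, which 17 BPH-1 and 0 RWPE-1 values did, and 13 of the filled points lie below 0.

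Of the 11 ER chaperones, lectins and disulfide isomerases, 8 were higher and 1 (CALR) lower with C-Raf in BPH-1 (30.4% and 29.4% of all genes tested), and 5 fell in the metastasis-derived lines (16.8% of all genes). HSPA5 (chromosome 9, 125234853 to 125241330, minus strand, GRCh38), the ER chaperone BiP and the classical readout of the response, was at 720, 747 and 728 CPM in vector control and at 936, 917 and 917 CPM in C-Raf parental cells. The metastasis-derived lines R069, R072 and thymus R075 were at 490, 675 and 899 CPM. The C-Raf step of 0.32 ± 0.03 passed edgeR's test (adjusted p = 1.53e-11), with no overlap between groups (34.5% of all genes rose without overlap at this step). The lines all lay below the parental libraries, thymus R075 by little, and the difference of −0.38 ± 0.26 did not pass (edgeR adjusted p = 0.293). Without TMM scaling, the low-depth lines R071, R074 and bone R075 gave 33, 35 and 3 counts of HSPA5, or 71 CPM (95% Wilson interval 50.6 to 99.7), 264 CPM (190.1 to 368) and 27.0 CPM (9.18 to 79.4), against a mean of 1052 CPM in C-Raf parental cells. The fitted metastasis difference was positive for 0 of the 11 genes.

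The 5 that fell were SDF2L1, MANF, PDIA6, PDIA4 and HYOU1. SDF2L1, a cofactor of ER J proteins whose promoter carries an ERSE-II, went from 27.6, 27.3 and 26.8 CPM in C-Raf parental cells to 8.84, 3.87 and 8.58 CPM (−1.88 ± 0.32, edgeR adjusted p = 0.00734). MANF, a secreted protein that binds BiP, went from 77.6, 77.2 and 79.5 CPM to 31.9, 34.3 and 45.5 CPM (−1.02 ± 0.18, edgeR adjusted p = 0.00781). HYOU1, a nucleotide exchange factor of BiP with 2 copies of ERSE-II, went from 436, 417 and 420 CPM to 224, 221 and 259 CPM (−0.81 ± 0.17, edgeR adjusted p = 0.0134). In each of these genes the 3 lines lay below every vector control library as well.

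The disulfide isomerase genes PDIA4 and PDIA6 fell by 0.86 and 0.97 (SE 0.20 and 0.31, edgeR adjusted p = 0.0168 and 0.0492). PDIA4 went from 365 to 376 CPM in C-Raf parental cells to 162, 197 and 230 CPM, and PDIA6 from 321 to 331 CPM to 173, 94.6 and 217 CPM. SDF2L1 and MANF passed edgeR's test in each fit that left out a library, whereas HYOU1 and PDIA4 missed it when any of the C-Raf parental libraries was left out, and PDIA6 missed it also without line R069. With all 6 lines, SDF2L1 alone of the 5 passed. HSP90B1, at 1616 to 1678 CPM in C-Raf parental cells, was at 1248, 1885 and 1554 CPM in the lines, with R072 above and the others below. CRELD2, a secreted ER stress target, was at 34.1 to 35.2 CPM and then at 21.5, 37.7 and 21.1 CPM. These genes were thus high in line R072, whereas PDIA3 was lowest there (166 CPM, against 358 and 475 CPM in R069 and thymus R075).

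The ER J proteins, which bring substrates to BiP, and the degradation and translocation genes gave 0 calls in the BPH-1 metastasis-derived lines by edgeR, against 37.7% of all genes, 0 at an unadjusted p below 0.05 and 0 by DESeq2 (47% of all genes). All 3 J protein genes rose with C-Raf in BPH-1, as 30.4% of all genes did: DNAJC3 by 0.26 ± 0.03 (edgeR adjusted p = 2.21e-07), DNAJB9 by 0.19 ± 0.08 (edgeR adjusted p = 0.0437) and DNAJB11 by 0.09 ± 0.03 (edgeR adjusted p = 0.00641). DNAJB9, a target of the IRE1 branch that overlaps PNPLA8 and THAP5 on the genome, was at 8.90, 9.30 and 9.95 CPM in C-Raf parental cells and at 10.2, 6.47 and 34.9 CPM in lines R069, R072 and thymus R075. HERPUD1, a membrane scaffold of the degradation complex, was at 63.4 to 67.5 CPM and then at 52.4, 42.9 and 100.4 CPM. SEL1L, its adaptor subunit, was at 83.6 to 86.5 CPM and then at 121, 58.6 and 162 CPM. All 8 genes of these roles were highest in line thymus R075 among the 3 lines, and over all 37 members this line was highest for 23, against 39.0% of all genes tested. Line R072 was lowest for 20 members, against 45.0% of all genes.

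Fibroblast and endothelial markers also moved with stage in BPH-1. The summed level of 7 fibroblast markers was 11.3 to 11.5 CPM in C-Raf parental cells and 48.8 to 70.3 CPM in the 3 deep metastasis-derived lines, where 4 of the 7 stayed below 1 CPM. The sum of 5 endothelial markers was 1.49 to 1.57 CPM and 2.80 to 39.2 CPM, with 4 of the 5 below 1 CPM in all 3 lines. The sum of 8 haematopoietic markers was 24.4 to 27.2 CPM and 6.0 to 21.8 CPM. The sum of 8 epithelial markers was 6148 to 6306 CPM and 9387 to 11339 CPM, with 2 of the 8 higher and 4 lower by edgeR. KRT14, a basal keratin, went from 298 to 309 CPM to 3951, 6329 and 2906 CPM in lines R069, R072 and thymus R075, and KRT5 from 2669 to 2733 CPM to 4578, 3677 and 4875 CPM. KRT8 went from 906 to 937 CPM to 78.1, 86.7 and 181 CPM, and KRT18 (834 to 851 CPM before and 85.2 to 156 CPM after), KRT19 (735 to 761 and 173 to 376 CPM) and EPCAM (195 to 199 and 20.7 to 90.3 CPM) were lower too. Fibroblast and haematopoietic sums also differed at the C-Raf step. In vector control the fibroblast sum was 25.0 to 27.2 CPM and the endothelial sum 0.927 to 1.30 CPM. The haematopoietic sum was 13.0 to 14.3 CPM there and the epithelial sum 6030 to 6272 CPM, with KRT8 at 1227 to 1306 CPM. The part of these differences, of the share of RN7SL1 and of the count table in the BPH-1 results was not tested.

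Among the 7 RWPE-1 metastasis-derived lines, Bone4 had the highest level for 20 of the 37 members and the lowest for 10, against 30.7% and 27.8% of all genes tested. It was highest for 5 of 5 sensors and transducers, 5 of 6 genes of the ATF4 and CHOP branch and 7 of 7 genes of amino acid synthesis and transport, and lowest for 9 of 11 ER chaperones, lectins and isomerases. DDIT3 was at 78.2 CPM in Bone4, 7.04 times the median of the other 6 lines, CHAC1 at 21.9 CPM (5.88 times), TRIB3 at 465 CPM (5.75 times) and ASNS at 243 CPM (4.90 times). PSAT1 was at 495 CPM (3.74 times), PHGDH at 232 CPM (3.07 times), ERN1 at 21.1 CPM (1.80 times) and ATF4 at 253 CPM (1.60 times). ATF3, in contrast, was at 21.9 CPM, 1.02 times the median of the others.

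Chaperone levels in Bone4 lay on the low side, with HSPA5 at 687 CPM (0.738 times the median of the other 6 lines), HSP90B1 at 574 CPM (0.686 times) and SDF2L1 at 5.33 CPM (0.497 times). Bone4 is a single library, so these values carry no replicate check. Among the other 6 lines, from lymph node, spine and bone, 34 of the 37 members varied by less than 1.5-fold between the highest and the lowest line, with a median of 1.27-fold and a maximum of 2.14-fold.

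**Figure D4:**
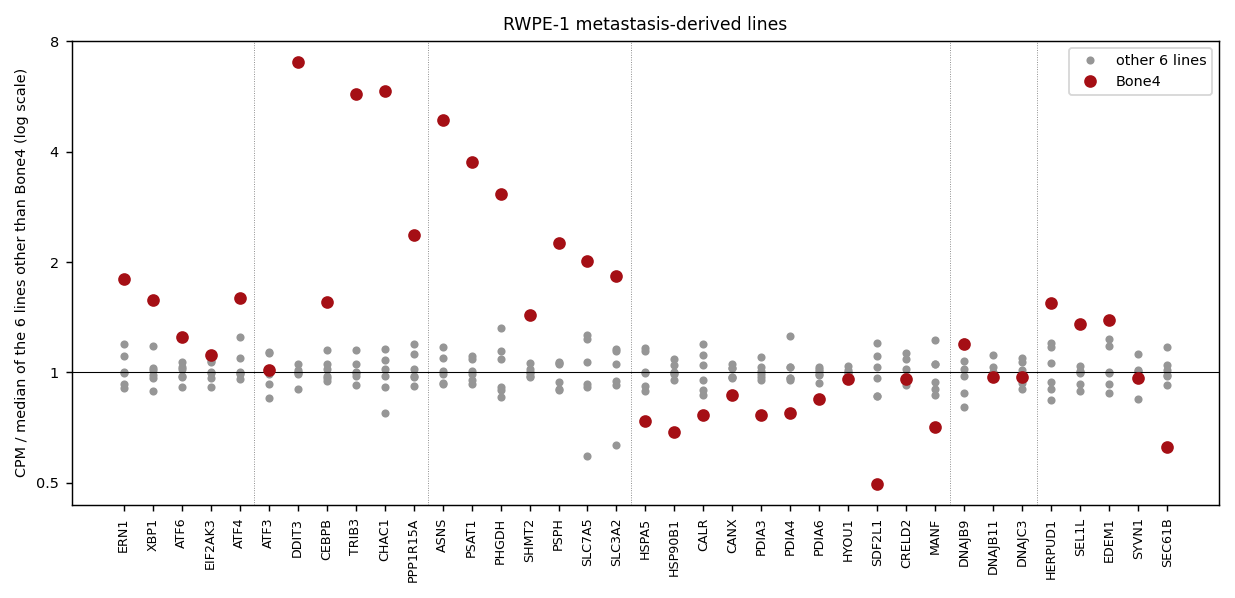
Level of each member in the 7 RWPE-1 metastasis-derived lines relative to the median of the 6 lines other than Bone4 (log axis, 1 point per line, Bone4 marked). Bone4 lies above the other lines for the amino acid genes, up to 4.90 times the median for ASNS, and below 1 for HSPA5, HSP90B1 and SDF2L1.

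The RWPE-1 C-Raf parental libraries also differed among themselves. The first library was highest of the 4 for 9 of 11 ER chaperones, lectins and isomerases and lowest for 5 of 6 genes of the ATF4 and CHOP branch, and over all genes tested it was highest for 36.5% and lowest for 35.5%. HSPA5 was at 1503 CPM there and at 808, 1012 and 1042 CPM in the other 3, and the vector control library of the same table was at 1170 CPM. TRIB3 was at 70.5 CPM in the first library and at 96.0, 121 and 123 CPM in the others, and ASNS at 44.4 CPM and at 56.5, 79.7 and 84.2 CPM. Libraries 3 and 4 were thus the high ones for ATF3, DDIT3, TRIB3, CHAC1 and ASNS. Of the epithelial markers, KRT5 was at 4029 CPM in the first library and at 2268, 1033 and 1045 CPM in the others. KRT14 was at 3592 CPM and at 2396, 1564 and 1626 CPM. TP63 was lowest in the first library (196 CPM), and CDH1 lay among the others (232 CPM). The part of these differences was not tested. Within the second table, 3 C-Raf parental and 4 metastasis-derived libraries gave 0 calls among the 37 members by edgeR and 1 at an unadjusted p below 0.05, and DESeq2 was not run there. Over all genes that fit called 2.

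Between the cell lines, C-Raf parental RWPE-1 and BPH-1 differed in 13 of the 37 members, 1 higher and 12 lower in RWPE-1, against 56.9% of 15243 genes (28.7% higher and 28.2% lower). Medium and count table differ with the cell line here. The lower genes included 6 of 11 ER chaperones, lectins and isomerases. CRELD2 was at 34.1 to 35.2 CPM in BPH-1 and at 8.43 to 12.7 CPM in RWPE-1 (−1.77 ± 0.17, edgeR adjusted p = 5.67e-08), and PDIA4 at 365 to 376 CPM and at 104 to 130 CPM (−1.69 ± 0.14, edgeR adjusted p = 1.26e-08). ALG12, which overlaps CRELD2 on the opposite strand, held up to 174.5% of the counts of CRELD2, and its part was not tested. ERN1 was lower by 0.78 on the log2 scale (−0.78 ± 0.20, edgeR adjusted p = 0.00243). HSPA5 did not pass (0.24 ± 0.21, edgeR adjusted p = 0.337), with 917 to 936 CPM in BPH-1 inside the 808 to 1503 CPM of RWPE-1. CEBPB was the gene that was higher in RWPE-1, at 173 to 242 CPM against 104 to 106 CPM (1.04 ± 0.32, edgeR adjusted p = 0.0107, or 0.155 with all 24 libraries).

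A wider set of 97 genes from 7 lists of the same pathways was read beside the members. In the BPH-1 metastasis-derived lines 7 of the 94 tested were higher and 27 lower (21% and 16.8% of all genes tested), with a median of −0.36, against 0.07 over all genes tested. Of 12 aminoacyl-tRNA synthetases, which charge tRNAs and are ATF4 targets in part, 9 were lower and 0 higher, against the same 16.8% and 21% of all genes. Of 22 other ATF4 targets and partners 4 were higher and 8 lower. PYCR1, of proline synthesis, went from 82.8 to 92.1 CPM in C-Raf parental cells to 6.87 to 15.3 CPM (−2.81 ± 0.31, edgeR adjusted p = 0.00254), JDP2, a repressor of the AP-1 family, from 6.26 to 7.93 CPM to 1.03 to 1.58 CPM (−2.37 ± 0.28, edgeR adjusted p = 0.00277), and GPT2, a mitochondrial alanine aminotransferase, from 100.2 to 105 CPM to 16.6 to 22.1 CPM (−2.32 ± 0.18, edgeR adjusted p = 0.00127). KLHL24 rose from 10.9 to 12 CPM to 42.2 to 60.5 CPM (2.22 ± 0.19, edgeR adjusted p = 0.00151), the stress-induced NUPR1 from 0.187 to 0.373 CPM to 2.13 to 12.4 CPM (4.32 ± 0.86, edgeR adjusted p = 0.011) and ALDH1L2, of mitochondrial folate metabolism, from 1.87 to 2.60 CPM to 3.16 to 8.35 CPM (1.57 ± 0.40, edgeR adjusted p = 0.0249). ALDH1L2 missed the threshold in 5 of 11 alternative fits (edgeR adjusted p up to 0.187) and NUPR1 in 2 of 11 (up to 0.0563), whereas PYCR1, JDP2, GPT2 and KLHL24 passed in each.

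Lists of other compartments were counted in the same lines. Of 10 genes of mitochondrial protein quality control, which are 9 chaperones and proteases and the transcription factor ATF5, also counted among the other ATF4 targets and partners, 7 were lower (ATF5 among them) and 0 higher, against 16.8% and 21% of all genes, with a median of −0.95, whereas of 16 genes of the cytosolic heat shock response 1 was higher and 1 lower, with a median of −0.51. In RWPE-1, 0 of 96 wider genes tested passed between metastasis-derived lines and parental cells by edgeR, with 3 at an unadjusted p below 0.05 and 0 by DESeq2, against 0.0985% of all genes by edgeR, 7.86% unadjusted and 1.24% by DESeq2. Line Bone4 was highest of the 7 lines for 12 of 12 aminoacyl-tRNA synthetases and 18 of 22 other ATF4 targets and partners, and lowest for 14 of 16 cytosolic heat shock genes and 13 of 16 genes of the translocon and vesicle traffic, against 30.7% highest and 27.8% lowest over all genes tested. STC2, a secreted glycoprotein of this list, was at 219 CPM in Bone4 and at 25.8 to 38.1 CPM in the other 6 lines.

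In the C-Raf step of BPH-1, 48 of 95 wider genes tested were higher and 22 lower (30.4% and 29.4% of all genes tested), with a median of 0.09. The largest rises were ERO1A, the oxidase that supplies disulfide bonds (listed as ERO1L), at 183 to 192 CPM in vector control and 263 to 268 CPM in C-Raf parental cells (0.49 ± 0.03, edgeR adjusted p = 5.58e-15), EIF2B3, a subunit of the exchange factor for eIF2 (0.45 ± 0.04, edgeR adjusted p = 5.94e-10), and the isomerase PDIA5 (0.41 ± 0.04, edgeR adjusted p = 7.24e-10). The largest falls were NUPR1, from 0.878 to 1.27 CPM to 0.187 to 0.373 CPM (−1.92 ± 0.30, edgeR adjusted p = 3.38e-06), CREB3L1, a membrane-bound transcription factor (−1.81 ± 0.37, edgeR adjusted p = 0.000113), and JDP2, from 15.4 to 17.7 CPM to 6.26 to 7.93 CPM (−1.25 ± 0.08, edgeR adjusted p = 4.38e-14). JDP2 thus fell at both steps in BPH-1, as ATF3, of the same AP-1 related family, fell at the first.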

How the data were processed

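RNA sequencing libraries were grouped by their labels. The authors deposited 4 tables of expected counts per gene symbol. Per the submitters' processing notes the tools were cutadapt, FastQC, STAR and RSEM with the hg38 build, and the methods name the TOIL pipeline. Tool versions are not given in the sources used here. All value columns matched a listed sample.

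Expected counts were rounded. Symbols were matched to GENCODE version 29 (36628 directly and 891 by an older symbol) and kept if protein-coding. Filtering used filterByExpr by group, scaling used TMM, and tests used glmQLFit and glmQLFTest of edgeR 4.0.16 (R 4.3.3) with Benjamini-Hochberg adjustment and a threshold of 0.05. Fits within a cell line used its groups, and the fits over both had terms for cell line and stage or their interaction. SE was |log2 fold change| divided by the square root of F. Alternatives were DESeq2 1.42.0, RLE factors, no filter, all symbols, the low-depth libraries, ComBat-seq (sva 3.50.0), no cell line term, a table term, a replicate block and each library left out. Within 1 RWPE-1 table and without line R072 were chosen after seeing the data. The procedure was tested on simulated data with known changes. In BPH-1 metastasis-derived lines it recovered 81% of 4-fold and 11% of 2-fold changes. The shares were 80% and 12% for C-Raf in RWPE-1, and 78% and 11% for the metastasis effect between cell lines. For metastasis they were 98% and 78% in RWPE-1 and 97% and 54% over both cell lines. For C-Raf in BPH-1 they were 98% and 96%. Genes not called can thus have changed by 2-fold.

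Counts of 20568409 or more per deep library limit counting error, and 95% intervals cover counting error only. A named pseudogene held at most 2.48% of a member's counts (ASNS).

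The members and lists were chosen with earlier results of these data known. Members were named where they passed the test with a log2 fold change of at least 0.5 (at most 20 per comparison), along with ERN1, ATF3 and HSPA5, and wider genes as the 3 largest changes each way. Other genes, and those singled out by library, were chosen after their values were seen. A further gene is not reported here.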

Additional observations from a re-analysis of the deposited data

Results flagged for a closer look

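In the RWPE-1 metastasis-derived lines, line Bone4 lay apart from the other 6 by Dixon's criterion at the 95% level for 16 members, and 18 of 74 tests of a gene within a group did so. Chance gives about 1 in 20, and genes measured in the same library are not independent tests. The share of all genes that this criterion flags in Bone4 is not given here. Bone4 was highest of the lines for 4047 and lowest for 3671 of 13166 genes tested. By this criterion Bone4 lay above the other lines for ERN1 (21.1 CPM), DDIT3 (78.2 CPM), CEBPB (272 CPM), TRIB3 (465 CPM), CHAC1 (21.9 CPM) and PPP1R15A (170.2 CPM). The same held for ASNS (243 CPM), PSAT1 (495 CPM), PHGDH (232 CPM), SHMT2 (269.7 CPM), PSPH (41.2 CPM) and SEL1L (98.1 CPM). It lay below the other lines for HSP90B1 (574 CPM), PDIA3 (422 CPM), SDF2L1 (5.33 CPM) and SEC61B (33.3 CPM). Among the 4 RWPE-1 C-Raf parental libraries, the first lay above the others by this criterion for MANF (49.1 CPM) and DNAJC3 (84.5 CPM).

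The effect of metastasis differed between the cell lines for 18 of 37 members, against 46.5% of all genes, by edgeR's interaction test with Benjamini-Hochberg adjustment, given here as RWPE-1 minus BPH-1 on the log2 scale. It was higher in RWPE-1 for the amino acid genes PSAT1 (3.13, adjusted p = 0.000178), PSPH (2.87, adjusted p = 3.28e-06), ASNS (2.56, adjusted p = 0.00573), SHMT2 (1.88, adjusted p = 2.37e-06), SLC7A5 (1.74, adjusted p = 0.00635), PHGDH (1.72, adjusted p = 0.0034) and SLC3A2 (1.05, adjusted p = 0.0457). CHAC1 (2.68, adjusted p = 0.0369) and TRIB3 (1.89, adjusted p = 0.0396) were also higher by edgeR, as were the ER genes SDF2L1 (1.88, adjusted p = 0.0012), MANF (0.98, adjusted p = 0.00285), PDIA6 (0.92, adjusted p = 0.00494), HYOU1 (0.81, adjusted p = 3.31e-05), PDIA4 (0.75, adjusted p = 0.0036) and SYVN1 (0.43, adjusted p = 0.0482). SYVN1 overlaps FAU on the same strand, and the part of this overlap was not tested. Lower in RWPE-1 by edgeR were ATF3 (−3.56, adjusted p = 0.0149), PPP1R15A (−2.06, adjusted p = 0.00327) and EIF2AK3 (−0.92, adjusted p = 0.000185). In 26 alternative fits the difference missed the threshold in 21 for SYVN1 (adjusted p up to 0.132), in 15 for SLC3A2 (edgeR adjusted p up to 0.107), in 7 for CHAC1 (up to 0.158) and in 7 for TRIB3 (up to 0.0885). It also did so in 1 for ATF3 (0.919, without thymus R075), 1 for EIF2AK3 (0.14, with all 24 libraries) and 1 for PDIA4 (0.0795, with all 24 libraries). Medium and count table differ between the cell lines and cannot be told apart from them here. The fit estimates the spread of each gene over all groups together, so these p-values can be too small for the more variable BPH-1 metastasis-derived lines.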

How the results depend on the processing

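Of 1914 alternative values for 95 named fold changes, 1806 kept their direction and side of the threshold, 90 no longer passed, 7 newly passed and 11 changed direction. For C-Raf over both cell lines, members called moved from 0 to 1 with DESeq2 and to 1 with ComBat-seq and DESeq2, and ran from 0 to 1 without single libraries. For metastasis over both cell lines they moved from 0 to 3 with DESeq2, 1 with noncoding symbols and 7 with ComBat-seq and DESeq2, and ran from 0 to 1. In BPH-1 metastasis-derived lines they moved from 17 to 9 with all 6 lines (1 higher and 8 lower, against 15.6% of all genes) and ran from 8 to 24: 8 without each C-Raf parental library (the same 8 genes), 15 without R069, 24 without R072 and 19 without thymus R075. In RWPE-1, C-Raf parental against vector control ran from 0 to 2, the 2 without the first C-Raf parental library, and the cell line difference of the C-Raf effect from 0 to 1, the 1 without thymus R075. Between the cell lines, members called moved from 13 to 7 with all 24 libraries and ran from 12 to 18, the 18 without Bone4. Counts given without a share of all genes do not show whether the members moved apart from all genes.

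ATF3 turned negative for C-Raf over both cell lines without a cell line term (−0.81) and ran from −1.17 (without thymus R075) to 0.70 without single libraries. For metastasis over both cell lines it ran from −0.057 (without thymus R075) to 1.28, and in RWPE-1 from −0.50 to 0.20, positive without C-Raf parental library 3 (0.12) or 4 (0.20). HSPA5 turned positive in RWPE-1 C-Raf parental cells with a table term (0.20) and ran from −0.29 to 0.027 without single libraries, positive without library 2. Its cell line difference in the metastasis effect ran from −0.011 (without R069) to 0.43. The cause was not tested.

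Over all genes, DESeq2 called 454 against 124 for C-Raf and 934 against 382 for metastasis over both cell lines, where noncoding symbols gave 1781, ComBat-seq 1259 and no cell line term 1. In RWPE-1 DESeq2 called 163 against 13 for metastasis and 772 against 55 for C-Raf. BPH-1 replicate numbers did not pair the libraries (correlations 0.045, −0.046 and −0.038), and a replicate block gave 27 calls against 28.

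The 3 low-depth lines resolve only well expressed members, RWPE-1 rests on 1 vector control library, and BPH-1 metastasis-derived results rest on 3 lines with unequal shares of RN7SL1.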
